A study of Mus musculus with 4 samples.

Results

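The Crh-positive injured neurons described here were 640 cells of the dorsal root ganglion (DRG) that carried both the injury gene Sprr1a and the stress peptide gene Crh 7 days after a constriction injury of the sciatic nerve. They were chosen from the 2 chronic constriction injury (CCI) libraries by 3 genes, each expressed as CP10K, the UMIs of a gene per 10000 UMIs of the cell, where a UMI marks 1 captured RNA molecule. A cell was a member at a Sprr1a CP10K above 1.718, a Crh CP10K of at least 0.5 and a Ly6a CP10K below 1. Of the 3879 Sprr1a+ cells of the CCI libraries, 298 of 1760 in Male-CCI and 342 of 2119 in Female-CCI met the rule, and the other 1462 and 1777 Sprr1a+ cells served as the comparison within each library. The 4 libraries of the series held 23691 deposited cells, of which 17836 passed the limits on genes, mitochondrial RNA and UMIs.

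The study sequenced RNA of single GFP+ cells sorted from the L4-5 DRGs of PirtEGFPf mice on a C57BL/6 background, aged 7 to 8 weeks. In these heterozygous mice a membrane-bound EGFP replaces the coding sequence of 1 Pirt allele and marks most DRG neurons, while the Pirt-negative neurons left out by the sort are mainly large ones with neurofilament. Mice had either bilateral sciatic CCI, a loose ligation of the nerve, or a bilateral sham operation without ligation. Each library pooled the 20 DRGs of 5 mice on day 7, so there was 1 library per sex and surgery (Male-CCI and Female-CCI after CCI, Male-Sham and Female-Sham after the sham operation). Where CCI was compared with sham, p-values below measure the spread between these pooled libraries. Where cells of the same library were compared, they measure how the difference varied between the male and the female library. Littermates had the same surgery, so that a difference between CCI and sham and a difference between litters cannot be told apart.

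The libraries held between 195684124 and 237069156 UMIs. The median cell of the Crh+ neurons held 56533 UMIs in Male-CCI and 45588 in Female-CCI, against 61189 and 46808 in the other Sprr1a+ cells. The median share of mitochondrial UMIs was 4.21% and 4.20% in the Crh+ neurons against 4.43% and 4.41% in the others. No barcode was shared between the Crh+ neurons of the 2 libraries, and any 2 libraries shared 1 to 7 barcodes among all kept cells. None of the Crh+ neurons had the Apoe level of a satellite glial cell (a CP10K of 300 or more), against 10 and 7 of the other Sprr1a+ cells.

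Sprr1a encodes a small proline-rich protein that sensory neurons switch on after their axons are damaged, and it is used as a mark of injured neurons in mixed ganglia. Crh encodes corticotropin-releasing hormone, the hypothalamic peptide that starts the hormonal stress response by acting on the receptors Crhr1 and Crhr2. Its relatives are the urocortins, and Crhbp is a secreted protein that binds and holds the peptide. The mixed DRG includes peptidergic nociceptors (PEP), non-peptidergic nociceptors (NP), large neurons rich in neurofilament (NF) and C-fibre low-threshold mechanoreceptors (cLTMR), which are unmyelinated neurons of hairy skin that respond to gentle touch and express Th and Fam19a4. Injured neurons lose much of the expression that defines these classes.

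Crh RNA in the Crh+ neurons spanned a wide range. In Male-CCI the Crh CP10K of single cells ran from 0.504 through a median of 3.45 to 31.2, and in Female-CCI from 0.508 through 3.02 to 26.6. These medians stood for 18 and 12 Crh UMIs per cell, and 13 and 14 cells passed the limit on 1 UMI. Just inside the limit, between 0.5 and 0.6, lay 15 and 14 cells, and just outside, between 0.4 and 0.5, lay 23 and 24. Of the other Sprr1a+ cells with Ly6a below its limit, 1138 and 1359 held no Crh UMI and 248 and 286 held Crh below the limit. A further 74 and 120 were past the Ly6a limit with Crh below its own, and 2 and 12 were left out of the Crh+ group through Ly6a alone. Outside the Sprr1a+ cells, and with Ly6a below its limit, the Crh limit was passed by 6 cells in males and 26 in females. In the GRCm38 annotation (the mm10 build of the processing notes) both genes lie on the minus strand of chromosome 3, far apart, with Crh (ENSMUSG00000049796) at chr3:19693401-19695396 and Sprr1a (ENSMUSG00000050359) at chr3:92483952-92485895.

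**Figure D1:**
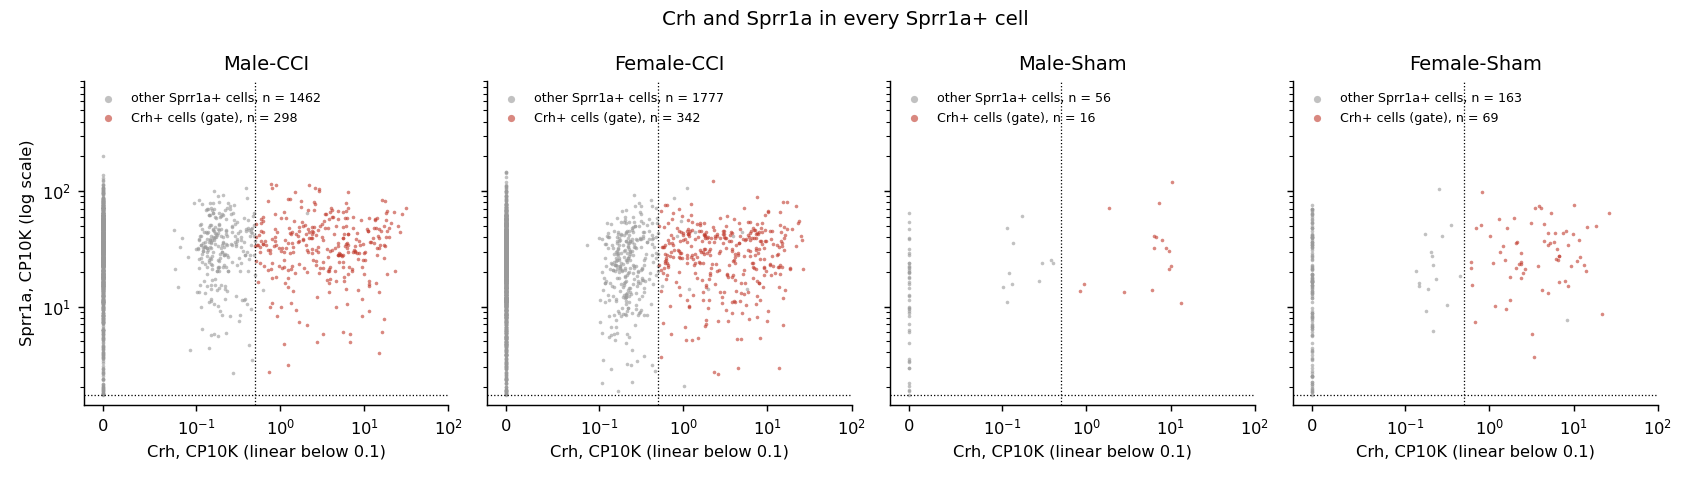
Crh CP10K (horizontal, linear below 0.1 and logarithmic above) against Sprr1a CP10K (vertical, logarithmic) for every Sprr1a+ cell of each library, with the Crh+ neurons in a colour of their own and dotted lines at the limits. The Crh+ neurons spread from the limit of 0.5 up to 31.2 in Male-CCI and 26.6 in Female-CCI over the same range of Sprr1a as the other cells, and the sham libraries held few cells of either kind.

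The Crh+ neurons made up a like part of the Sprr1a+ cells in both sexes. Their share was 16.9% in Male-CCI (95% exact binomial interval 15.2 to 18.8) and 16.1% in Female-CCI (14.6 to 17.8), intervals that cover counting error only and overlap. As a part of all kept cells they were 8.91% and 8.25%. The libraries of both sham groups held few Sprr1a+ cells, 72 in Male-Sham and 232 in Female-Sham, of which 16 and 69 passed the same Crh and Ly6a limits. The resulting shares were 22.2% (13.3 to 33.6) and 29.7% (23.9 to 36.1), so that Crh+ cells were not a smaller part of the few Sprr1a+ sham cells than of the many Sprr1a+ CCI cells.

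The genes behind the selection and the 2 further markers proposed for these cells are given as a description, without a test. Values of summed cells are CPM, the UMIs of a gene per 1000000 UMIs of all cells of that kind in a library. Crh stood at 579 CPM in males and 495 CPM in females in the Crh+ neurons, against 4.24 and 4.98 CPM in the other Sprr1a+ cells, 1.10 and 4.20 CPM in the Sprr1a- neurons of the same libraries and 0.0692 and 0.181 CPM in the Sprr1a- neurons of sham. Sprr1a was at 3620.0 and 3018 CPM in the Crh+ neurons and 3418 and 2642 CPM in the others, so the 2 kinds of cell did not separate by the level of the injury gene. Ly6a, the surface protein known as Sca-1, was low in the Crh+ neurons by construction, at 3.0 and 3.19 CPM against 45.1 and 40.0 CPM. In sums over cells, a smaller number of cells with a gene and less of its RNA per cell cannot be told apart.

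Igfbp3, a secreted protein that binds insulin-like growth factors (chr11:7206086-7213923, minus strand), stood at 93.8 and 98.1 CPM in the Crh+ neurons and 56.5 and 56.5 CPM in the other Sprr1a+ cells. The Sprr1a- neurons of sham held 3.81 and 4.30 CPM, so Igfbp3 marked injured neurons as a whole and was higher still in those with Crh. At least 1 Igfbp3 UMI was found in 87.6% and 80.7% of Crh+ neurons against 73.9% and 66.1% of the others, and after every cell was thinned at random to 5000 UMIs these shares were 34.9% and 38.9% against 19.3% and 21.1%. Cckar, a receptor for the gut and brain peptide cholecystokinin (chr5:53697776-53707705, minus strand), stood at 37.5 and 56.0 CPM against 17.5 and 15.8 CPM. Most Crh+ neurons gave no Cckar UMI: it was found in 31.2% and 36.0% of them, against 20.7% and 18.5% of the other Sprr1a+ cells. In the Sprr1a- neurons of the same libraries Cckar stood at 7.34 and 13.4 CPM, so it was not limited to injured cells.

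Within the Crh+ neurons, several genes rose with the amount of Crh, the gene used for the selection. The genes given were proposed markers or genes higher in the Crh+ neurons, so their order is a description. Cells just past the limit fall in the lowest group, and whether they dilute it was not tested. In cells with a Crh CP10K of 0.5 to 1, 1 to 5 and 5 to 20, Igfbp3 stood at 57.1, 80.7 and 116.2 CPM in the male library, with 61.1, 84.2 and 131.9 CPM in the female one. Fam19a4, which encodes the secreted protein TAFA4 of cLTMRs, stood at 54.2, 74.8 and 98.2 CPM in the male library, with 36.3, 91.4 and 121.0 CPM in the female one. Over these 3 groups both genes climbed with Crh in each library. In the 7 cells of each library above 20, Igfbp3 was at 193 and 214 CPM, while Fam19a4 was at 81.3 and 79.0 CPM, below the group before. The surface protein gene Cd34 went from 0.4 through 3.5 to 11.5 CPM and from 1.3 through 4.7 to 9.2 CPM. Cckar had no such order in males (38.2, 25.2 and 52.7 CPM) and rose only over the first step in females (35.6, 62.0 and 61.4 CPM). The adhesion protein gene Ceacam10 rose only over the first step in males (2.4, 7.6 and 7.2 CPM). In females it rose at each step (3.7, 8.1 and 10.4 CPM). The 3 groups held 49, 134 and 108 cells in Male-CCI and 62, 158 and 115 in Female-CCI, with close median depths in each library (55596 to 57243 UMIs in males and 45463.5 to 47692.5 in females).

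**Figure D2:**
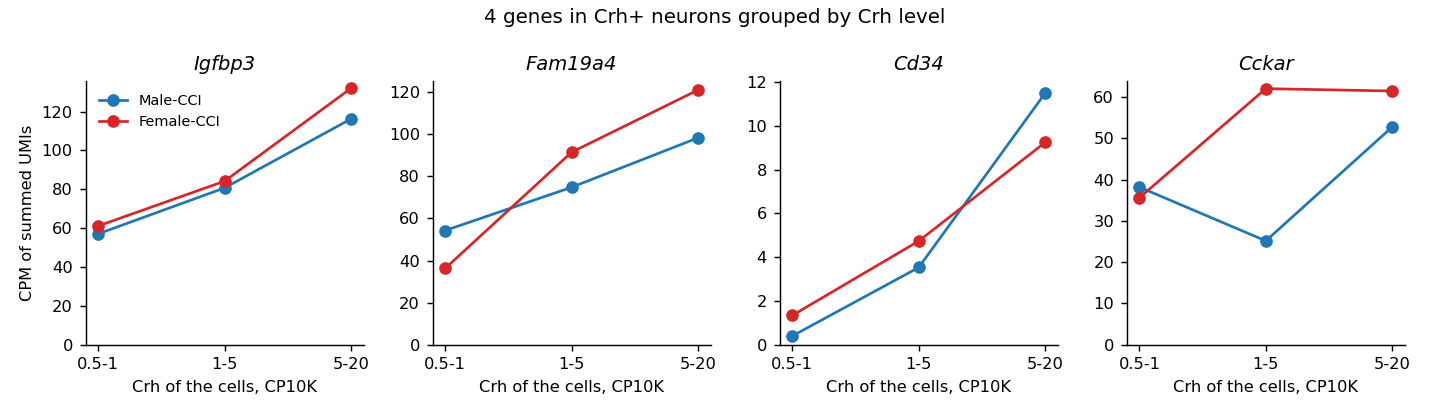
CPM of summed UMIs (vertical axes from 0) of 4 genes in the Crh+ neurons of each CCI library, grouped by the Crh CP10K of the cells (0.5 to 1, 1 to 5, 5 to 20), with 1 line per library. Igfbp3 and Fam19a4 climb over these 3 groups in both libraries, from 57.1 to 116.2 CPM for Igfbp3 in Male-CCI, whereas Cckar does not climb at each step.

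The label of injured neuron was set beside defining markers. The pan-neuronal tubulin gene Tubb3 stood at 5520.1 and 5424 CPM in the Crh+ neurons and 6145 and 5725 CPM in the other Sprr1a+ cells. Atf3, the transcription factor most used to mark axonal injury, was at 1263 and 1261 CPM in the Crh+ neurons, 1124 and 1170.0 CPM in the others and 117 and 135 CPM in the Sprr1a- neurons of sham. Both levels in the Crh+ neurons lay near those of the cells they are compared with. All of these cells were chosen on Sprr1a, so an Atf3 level above sham is no separate check of the injury label. None of the 10 satellite glial and Schwann cell genes tested passed the test between Crh+ neurons and the others. Of all genes tested, 4.09% were higher and 6.53% lower, so none of 10 is near the share of all genes. The summed level of the glial list was 1525 and 1518 CPM against 1502 and 1701 CPM, below the 2186 and 2490 CPM of sham neurons. Of the 7 immune genes tested, 2 were lower in the Crh+ neurons (Lyz2, 2.51 and 1.53 CPM against 5.27 and 2.69 CPM, and C1qa, 3.30 and 1.98 CPM against 5.76 and 2.31 CPM), and the sum of that list was 25.1 and 17.1 CPM against 25.5 and 21.2. The calls of Lyz2 and C1qa did not hold with either library left out (adjusted p = 0.706 and 0.890 without the male library, 0.570 and 0.480 without the female one), and the fibroblast gene Pdgfra was higher, at 3.36 and 3.07 CPM against 1.54 and 1.73 CPM (adjusted p = 0.00222, 0.151 and 0.0646 with the male and the female library left out).

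The first comparison asked how injured neurons with Crh differ from the injured neurons beside them. Against the other Sprr1a+ cells of the same library, 618 of 15094 genes were higher in the Crh+ neurons (4.09%) and 986 were lower (6.53%), by edgeR's quasi-likelihood test with the library as a block, a Benjamini-Hochberg adjusted p below 0.05 and a log2 difference beyond 0.5. Fewer genes were called with one library left out, 551 without Male-CCI and 984 without Female-CCI, in a fit that has no pairing and assumes that a lone library varies like the other groups. DESeq2 called 796. Of the 237 called genes of the lists and signatures described below that are not among the 15 furthest in either direction, 131 were not called without Male-CCI and 89 without Female-CCI. The median log2 difference over all genes was -0.000523. Cells were chosen on 3 genes of these same libraries, so a called gene is one that went with Crh, and the other Sprr1a+ cells are a mixture of the neuron classes that the nerve holds.

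The 15 genes furthest above the other Sprr1a+ cells included membrane proteins, receptors and signalling genes. Plppr1, a membrane protein of the family that shapes neurite growth, stood at 23.4 CPM in males and 15.3 CPM in females in Crh+ neurons, against 3.13 and 2.58 CPM, a log2 difference of 2.77 ± 0.11 (SE, edgeR adjusted p = 9.66e-09). The groups lay far apart in both libraries, and the Sprr1a- neurons of sham were low as well, at 2.14 and 2.78 CPM. Slc12a7, the potassium chloride cotransporter KCC4, was at 10.2 and 10.3 CPM against 1.78 and 1.83 CPM (log2 difference 2.52 ± 0.14). Vav3, a guanine nucleotide exchange factor, was at 18.5 and 15.4 CPM against 3.54 and 3.43 CPM (2.30 ± 0.11), and Rasd2, a small GTPase of the Ras family, at 23.6 and 18.3 CPM against 4.10 and 5.29 CPM (2.18 ± 0.17). The signalling genes thus stood several times higher in Crh+ neurons than in the injured neurons around them, in both sexes.

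Fam19a4 stood at 80.9 CPM in males and 90.5 CPM in females in Crh+ neurons against 17.3 and 23.6 CPM in the other Sprr1a+ cells (log2 difference 2.1 ± 0.06, adjusted p = 2.47e-09). It was found in 67.4% and 67.3% of Crh+ neurons and in 33.4% and 31.1% of the others, and at 5000 UMIs per cell in 27.2% and 25.7% against 7.05% and 7.93%. Its level was also above that of the pooled Sprr1a- neurons of sham, 39.5 and 45.0 CPM, but below the 385 and 363 CPM of sham neurons gated as cLTMRs. Htr1d, the serotonin receptor 1D that triptans act on, was at 26.3 and 19.9 CPM against 5.73 and 6.13 CPM (1.98 ± 0.11). Atp2b2, a calcium pump of the plasma membrane, was at 48.5 and 49.97 CPM against 15.3 and 14.7 CPM (1.73 ± 0.06). Receptor and calcium handling genes were thus among those that separated the Crh+ neurons from the others.

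Further genes of these 15 were the desmosomal protein plakophilin 3 (Pkp3, 47.2 and 38.0 CPM against 11.9 and 11.3 CPM), the zinc finger transcription factor Zfp521 (12.6 and 13.4 CPM against 4.22 and 3.48 CPM), the atypical cadherin Fat3, the unconventional myosin Myo1a, Iqcg (21.7 and 16.7 CPM against 3.31 and 3.27 CPM), Tmem144 (21.3 and 16.7 CPM against 3.63 and 4.05 CPM) and the opioid peptide precursor Penk. Their log2 differences ran from 1.73 for Atp2b2 to 2.77 for Plppr1 over the whole set. Penk stood at 34.8 and 25.6 CPM against 6.04 and 6.41 CPM (2.29 ± 0.11), and its call was lost with either library left out (adjusted p = 0.1003 without Male-CCI and 0.0940 without Female-CCI). The other 14 kept their call in both of these fits.

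**Figure D3:**
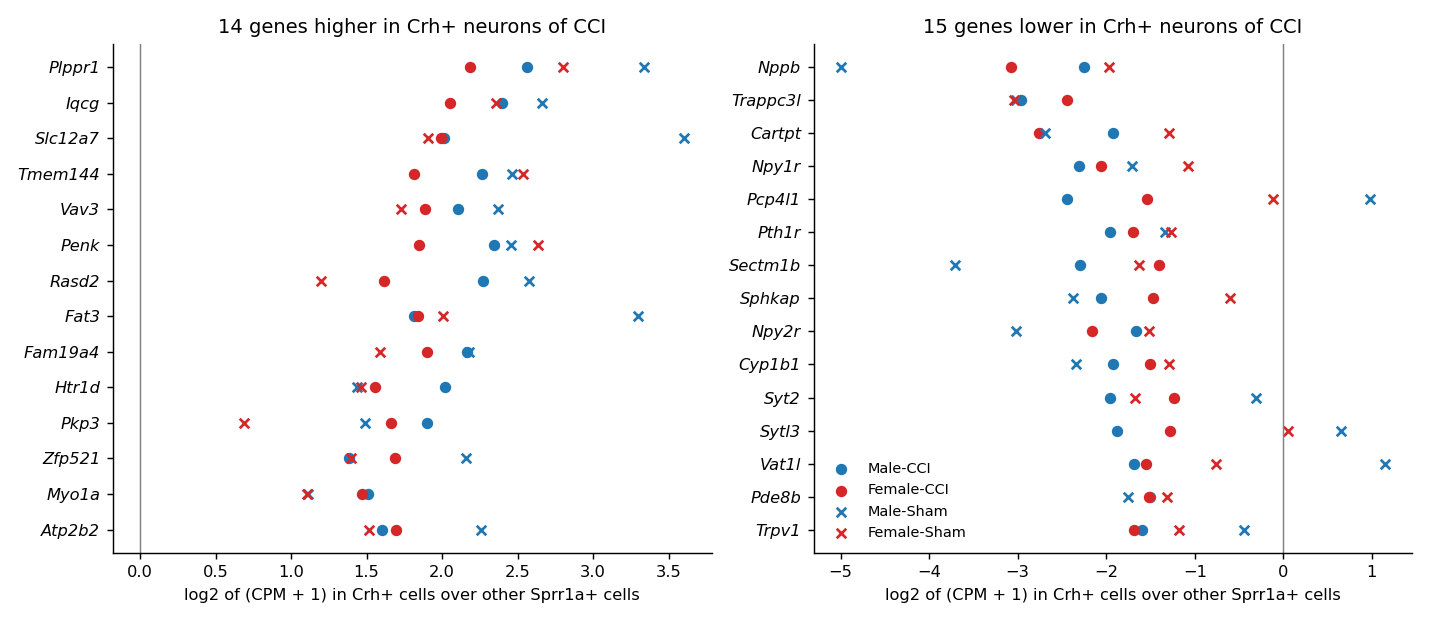
Log2 of CPM + 1 in Crh+ neurons over the other Sprr1a+ cells of the same library (horizontal) for 14 of the 15 genes with the largest called positive difference and the 15 with the largest negative one, with 1 point per library for CCI and for sham. In CCI every point of the higher genes lies above 0 and every point of the lower genes under it, with Plppr1 furthest above and Nppb and Trappc3l furthest below. In sham, Pcp4l1, Sytl3 and Vat1l have points above 0.

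The 15 genes furthest below the other Sprr1a+ cells included receptors and peptides known from nociceptors and itch neurons. Trpv1, the capsaicin and heat receptor, stood at 11.9 CPM in males and 12.7 CPM in females in Crh+ neurons, against 38.0 and 42.9 CPM (log2 difference -1.70 ± 0.07, adjusted p = 7.69e-09). The neuropeptide Y receptors Npy1r and Npy2r were at 9.60 and 12.8 CPM against 51.4 and 56.2 CPM (-2.25 ± 0.08) and at 11.2 and 6.71 CPM against 37.6 and 33.5 CPM (-1.97 ± 0.11). Cartpt, precursor of the CART peptide, was at 10.3 and 4.98 CPM against 41.7 and 39.6 CPM (-2.39 ± 0.25), and Nppb, the itch peptide of the NP1 class, at 2.02 and 0.447 CPM against 13.3 and 11.2 CPM (-3.28 ± 0.29). Each of these was several times lower in Crh+ neurons of both sexes. Pth1r, the parathyroid hormone receptor (3.43 and 5.24 CPM against 16.2 and 19.2 CPM), the cAMP phosphodiesterase Pde8b (3.85 and 4.09 CPM against 12.8 and 13.6 CPM), the A-kinase anchoring gene Sphkap, the calcium sensor Syt2 and the synaptotagmin-like Sytl3 were lower too, with log2 differences of -2.02, -1.71, -2.00, -1.77 and -1.75. Cyp1b1, Vat1l, Pcp4l1, Sectm1b and Trappc3l made up the rest (-1.78, -1.74, -2.07, -2.01 and -3.10).

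Of these 15 lower genes, 10 kept their call with either library left out. Without Male-CCI the adjusted p was 0.221 for Nppb, 0.0506 for Trappc3l, 0.0578 for Npy1r and 0.0744 for Syt2. Without Female-CCI it was 0.175 for Nppb and 0.0517 for Cartpt. The differences stayed negative in each of these fits, from -4.64 to -1.39 in the former.

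Markers of the cLTMR class stood apart from those of the other classes. Of the 8 cLTMR marker genes tested, 7 were higher in the Crh+ neurons and none was lower, with a median log2 difference of 1.63. For all genes the shares were 4.09% higher and 6.53% lower. Th, tyrosine hydroxylase, stood at 4.47 and 6.13 CPM in Crh+ neurons and 1.45 and 1.90 CPM in the other Sprr1a+ cells (1.68 ± 0.17). The purinergic receptor P2ry1 was at 8.75 and 7.92 CPM against 1.90 and 2.66 CPM (1.90 ± 0.16), the transcription factor Pou4f2 at 3.92 and 3.32 CPM against 1.04 and 1.45 CPM (1.57 ± 0.22) and the neurturin receptor Gfra2 at 8.56 and 11.8 CPM against 5.09 and 6.58 CPM (0.82 ± 0.11). The levels themselves were low beside uninjured tissue, since the Sprr1a- neurons of sham held 44.9 and 50.6 CPM of Th and 125 and 122 CPM of Gfra2. Slc17a8, the vesicular glutamate transporter VGLUT3 of cLTMRs, was the marker that did not pass the test.

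Marker genes of the other classes were lower or did not pass. Of the NP1 markers 6 of 6 tested were lower, of NP2 3 of 7, of NP3 1 of 4, of PEP1 and PEP2 4 of 8, of PEP3 and PEP4 3 of 6 and of PEP5 3 of 5, and none of these lists held a higher gene. Among all genes 6.53% were lower and 4.09% higher. The peptidergic marker Calca, precursor of CGRP, stood at 224 and 302 CPM against 713 and 763 CPM (-1.48 ± 0.12), and Adcyap1, precursor of PACAP, at 25.8 and 26.2 CPM against 56.3 and 63.9 CPM (-1.19 ± 0.05). Both held their call with either library left out. Of the 9 NF markers tested, 4 were lower (Nefh, Pvalb, Slc17a7 and Runx3, none of them called with either library left out, at adjusted p from 0.0555 to 0.720) and 1 was higher. The higher gene was Ntrk3, the neurotrophin 3 receptor, which stood at 75.2 and 77.1 CPM against 26.8 and 24.9 CPM (1.58 ± 0.05).

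A wider view used signatures of 30 genes for each of 8 classes, taken from Sprr1a- neurons of the sham libraries, which the selection did not use. In the Crh+ neurons, 18 of 29 tested genes of the cLTMR signature were higher than in the other Sprr1a+ cells and 1, C1ql4, was lower, with a median log2 difference of 1.15. In every other signature the lower genes outnumbered the higher ones, with 18 lower of 29 for NP1 and of 30 for PEP3/4, 13 for PEP1/2, 12 for NF, 10 for PEP5, 7 for NP2 and 3 for NP3, and medians between -0.85 and -0.18. Lower genes outnumbered higher ones among all genes too, at 6.53% and 4.09%. Genes of the cLTMR signature with large differences were Cd34, at 6.24 and 5.69 CPM against 0.471 and 1.11 CPM (2.98 ± 0.30), the adhesion protein Ceacam10, at 6.85 and 7.86 CPM against 1.76 and 1.71 CPM (2.1 ± 0.16), and Fxyd6, a regulator of the sodium pump, at 352 and 333 CPM against 134 and 170.3 CPM (1.20 ± 0.13). Tox3, a nuclear HMG-box protein, was at 33.6 and 33.1 CPM against 12.4 and 11.9 CPM (1.48 ± 0.07) and the Bcl2 family member Bok at 29.4 and 27.1 CPM against 9.67 and 10.0 CPM (1.54 ± 0.07). Higher here meant higher than in other injured neurons, not close to an intact cLTMR.

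Against the sham class itself, the Crh+ neurons held a median of 3.2% of the level of the cLTMR signature genes in Male-CCI and 3.28% in Female-CCI, while the other Sprr1a+ cells held 1.30% and 1.90%. For the PEP1/2 signature the Crh+ neurons held 26.5% and 26.3%, below the 38.3% and 38.6% of the others, and for NP1 they held 2.79% and 2.51% against 5.07% and 5.13%. In sham the PEP1/2 genes were at 1.09 to 2.13 times the level of the next class, with 10 CPM added to both levels. For the cLTMR genes this was 2.73 to 15.6 times, so the percents of different classes are not on a common scale. The cLTMR signature was the only one of the 8 whose median was higher in the Crh+ neurons than in the other Sprr1a+ cells in both libraries. Sprr1a- neurons of the CCI libraries, gated by the same class genes, held between 81.6% and 110.0% of their sham class. Sums over the same genes, which weigh abundant genes most, gave other values for some classes. The cLTMR sum was again higher in the Crh+ neurons, at 10.1% and 10.7% of the sham class against 4.03% and 5.12%. The NP1 sum was higher in them too, at 34.1% and 29.1% against 25.1% and 25.9%, the reverse of the medians. The PEP3/4 sum was 80.4% and 114.8% in the Crh+ neurons and 119.6% and 126.1% in the others, so it was not lower than in the sham class except in the Crh+ neurons of Male-CCI. Single peptide genes, whose levels are given below, made up most of both sums in both kinds of cell. In the Crh+ neurons Nts was most of the NP1 sum of 3351 and 2978 CPM, and Gal most of the PEP3/4 sum of 5361 and 7505 CPM. These sums therefore do not measure what was kept of the classes as a whole. Signature genes that fell to few counts make these medians coarse, and each class was gated on very few genes.

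**Figure D4:**
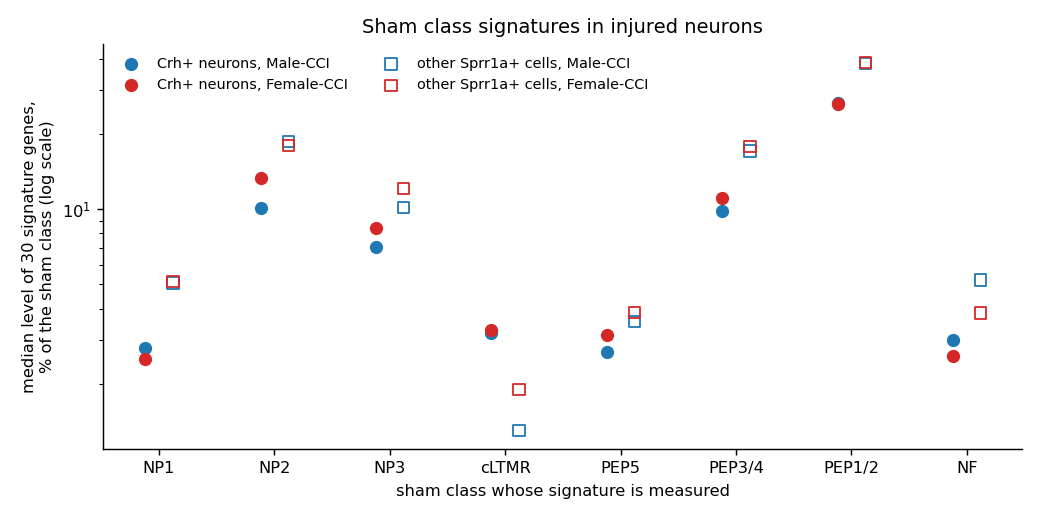
Median level of the 30 signature genes of each sham class (horizontal), as a percent of the level in that class of sham (vertical, log scale), in Crh+ neurons and other Sprr1a+ cells of each CCI library. The Crh+ neurons lie above the other Sprr1a+ cells for cLTMR (3.2% and 3.28% against 1.30% and 1.90%) and below them for the remaining classes.

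Among neuropeptides, most were lower in the Crh+ neurons than in the injured neurons beside them. Of 17 tested besides Crh, 10 were lower and 3 higher, where 6.53% and 4.09% of all genes were. The abundant injury peptide neuropeptide Y (Npy) stood at 159 CPM in males and 110.1 CPM in females in Crh+ neurons, against 286 and 170.2 CPM (-0.72 ± 0.06), and CGRP and PACAP precursors were lower as given above. Galanin (Gal), which injured neurons make in large amounts, was at 3937 and 6042 CPM against 6304 and 6509 CPM and did not pass the test. Neurotensin (Nts) was higher, at 2705 CPM in males and 2361 CPM in females, against 1646 and 1849 CPM (0.55 ± 0.09, adjusted p = 0.0258). With a single library left out the fit, which has no pairing, called neither Npy (adjusted p = 0.920 and 0.905) nor Nts (0.806 and 0.570). The other higher peptides were Penk and the nociceptin precursor Pnoc, at 2.57 and 1.21 CPM against 1.54 and 0.783 CPM (adjusted p = 0.0418, 0.363 and 0.189 without Male-CCI and Female-CCI). Of 12 peptide processing and granule genes, 3 were lower and none higher. Among them, the granin Scg2 stood at 35.9 and 35.3 CPM against 95.5 and 99.3 CPM (-1.43 ± 0.05).

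**Figure D5:**
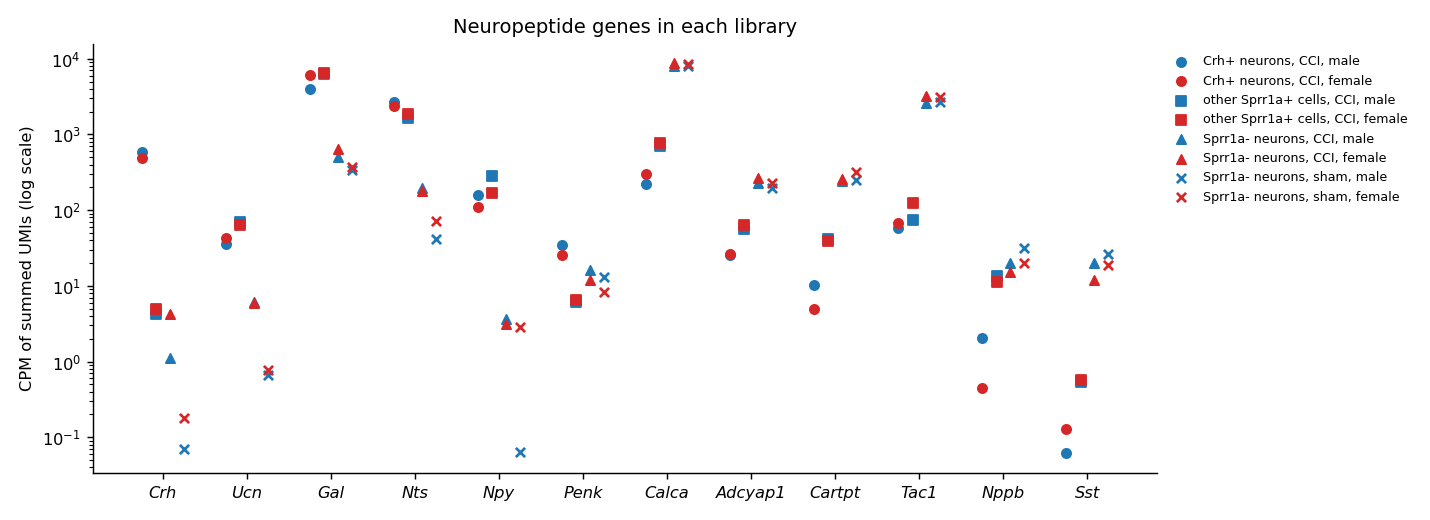
CPM of summed UMIs (log scale) of neuropeptide genes in Crh+ neurons, other Sprr1a+ cells and Sprr1a- neurons, with 1 point per library. Crh separates the Crh+ neurons by selection (579 and 495 CPM against 4.24 and 4.98), while Calca lies lower in them in both CCI libraries and Gal lies above its level in Sprr1a- neurons in both kinds of injured cell.

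Receptors for neuropeptides and related ligands were lower or did not pass. Of 22 tested, 9 were lower in Crh+ neurons and none was higher, where 6.53% and 4.09% of all genes were. Besides Npy1r and Npy2r these included the opioid receptor Oprm1 (0.367 and 0.639 CPM against 1.42 and 1.77 CPM), the cannabinoid receptor Cnr1 (2.63 and 3.26 CPM against 8.12 and 7.39 CPM), the adrenomedullin receptor partner Ramp3 (0.428 and 0.319 CPM against 1.84 and 2.72 CPM) and the orphan receptor Gpr149 (2.51 and 2.88 CPM against 6.36 and 7.24 CPM). Their log2 differences were -1.65, -1.38, -2.56 and -1.32, and all 4 kept their call with either library left out.

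Of 4 further CRH family genes tested against the other Sprr1a+ cells (Ucn, Ucn2, Crhr2 and Crhbp), 1 passed, as a lower gene. Among all genes 6.53% were lower and 4.09% higher. Ucn, a relative of Crh that acts on both of its receptors, was at 36.0 and 42.3 CPM in Crh+ neurons and 69.6 and 62.9 CPM in the other Sprr1a+ cells (-0.74 ± 0.10, adjusted p = 0.00633), while the Sprr1a- neurons of sham held 0.665 and 0.783 CPM. Ucn was thus far above its sham level in injured neurons of both kinds and lower in those with Crh. The receptors were at or near the limit of detection in the Crh+ neurons, Crhr1 at 0.122 and 0.319 CPM and Crhr2 at 0.367 and 0.447 CPM, where 3 UMIs in a library stood for 0.184 and 0.192 CPM. Crhbp was at 1.04 and 0.639 CPM, and no Ucn3 UMI was found in Crh+ neurons. Neither Crhr2 nor Crhbp differed past the test between Crh+ neurons and the others. Against sham neurons Crhr2 was lower (2.21 and 2.06 CPM in sham, -2.25 ± 0.27) and Ucn2 higher (0.673 and 0.256 CPM against 0.0160 and 0.0226 CPM, 4.64 ± 0.70).

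The partners of the markers Cckar and Igfbp3 did not move with them. Cholecystokinin itself (Cck) was at 0.122 and 0.128 CPM in Crh+ neurons and 0.807 and 1.70 CPM in the other Sprr1a+ cells, a lower level that rests on 2 UMIs in each library (adjusted p = 3.28e-04, 0.0910 and 0.178 with the male and the female library left out). The second cholecystokinin receptor, Cckbr, was at 52.8 and 48.4 CPM against 43.9 and 43.1 CPM and did not pass. Of 14 genes of the insulin-like growth factor system tested besides Igfbp3, none was higher, beside 4.09% of all genes, and 2 were lower, beside 6.53%. These were Pappa, a protease that cleaves binding proteins of this system, at 1.16 and 1.73 CPM against 8.22 and 8.05 CPM (-2.48 ± 0.18, adjusted p = 0.0812 and 0.0540 with the male and the female library left out), and Igfbp2, at 9.97 and 8.50 CPM against 13.3 and 14.7 CPM (0.229 and 0.297).

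Receptors for growth factors divided the Crh+ neurons from the others in both directions. Of 19 tested, 4 were higher and 5 lower, where 4.09% and 6.53% of all genes were. Ntrk3 and Gfra2 were higher, as given above. The neurotrophin receptor Ngfr was lower, at 40.4 and 43.5 CPM against 66.4 and 68.6 CPM (-0.67 ± 0.05), and so was the stem cell factor receptor Kit, at 13.3 and 17.3 CPM against 26.3 and 27.3 CPM (-0.80 ± 0.09). These 4 genes kept their call with either library left out.

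Of 28 transcription factors of sensory identity, 5 were higher and 9 lower, where 4.09% and 6.53% of all genes were. Casz1, a zinc finger factor, stood at 54.8 and 49.3 CPM in Crh+ neurons against 22.4 and 25.3 CPM (1.15 ± 0.07), and Zfp521 and Pou4f2 were higher as given above together with Bhlha9 (3.12 and 4.98 CPM against 1.85 and 2.75 CPM). Prdm12, a factor of nociceptor development, was lower, at 15.5 and 17.5 CPM against 28.8 and 28.3 CPM (-0.77 ± 0.07). Among transcription factors induced by injury, 1 of 32 differed, Sox4, at 37.7 and 38.7 CPM against 61.7 and 66.9 CPM (-0.73 ± 0.05).

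Ion channels differed in both directions as well. Of 40 potassium channel genes tested, 6 were higher and 12 lower, of 12 sodium channel genes 1 and 3, of 16 calcium channel genes 3 and 4, and of 26 sensory transduction channels 1 and 7. Among all genes 4.09% were higher, near the share of the transduction channels, and 6.53% lower. Piezo2, the touch receptor channel, was the higher transduction channel, at 113 CPM in males and 125 CPM in females, against 73.8 and 70.9 CPM (0.74 ± 0.05). The lower ones included Trpv1 and Asic3, an acid sensor (1.53 and 1.92 CPM against 11.2 and 8.05 CPM, -2.46 ± 0.18). Kcnd3, an A-type potassium channel, was higher (9.24 and 10.3 CPM against 4.35 and 5.82 CPM), and the background channel Kcnk2 (TREK-1) was lower (4.77 and 5.62 CPM against 11.03 and 12.7 CPM). The calcium channel subunit Cacna2d3 stood at 44.7 and 39.6 CPM against 21.7 and 18.8 CPM (1.08 ± 0.06), and the T-type channel Cacna1h at 12.3 and 14.8 CPM against 7.19 and 8.18 CPM (0.83 ± 0.09). The channels named in these sentences kept their call with either library left out.

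Of 38 axon guidance genes tested, 7 were higher and 9 lower, where 4.09% and 6.53% of all genes were. The semaphorin Sema3c stood at 59.3 and 48.1 CPM in Crh+ neurons against 32.8 and 28.8 CPM (0.82 ± 0.05). Of the semaphorin receptors, Nrp1 was higher (18.8 and 17.6 CPM against 8.89 and 8.89 CPM, 1.05 ± 0.08), with Plxna1 (15.2 and 11.6 CPM against 6.03 and 6.23 CPM, 1.15 ± 0.11), and Nrp2 was lower (8.69 and 8.95 CPM against 24.6 and 21.7 CPM, -1.37 ± 0.09). The laminin receptor subunit Itga6 was also higher (11.3 and 10.99 CPM against 4.86 and 4.24 CPM, 1.31 ± 0.11), 1 of 3 higher and 2 lower among 25 integrin and matrix genes. The neuropilins, which bind different semaphorins, thus differed in opposite directions in both libraries.

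Of 44 injury-response genes tested, 2 were higher and 6 lower, with a median log2 difference of -0.04, where 4.09% and 6.53% of all genes were called in these directions. Camk1, a calcium-activated kinase, stood at 498 and 495 CPM against 331 and 329 CPM (0.61 ± 0.04). Gap43, the growth-associated protein, was at 2060.2 and 2140.2 CPM against 3295 and 3252 CPM (-0.62 ± 0.04), and was not called without Male-CCI (adjusted p = 0.0506). Bdnf, the brain-derived neurotrophic factor, was at 31.7 and 43.0 CPM against 63.4 and 69.8 CPM (-0.82 ± 0.07). Of 23 p53 and stress genes, 3 were higher and none lower. The p53 target Phlda3, at 198 and 177 CPM against 119 and 107 CPM (0.75 ± 0.04), kept its call with either library left out.

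Of 33 axon growth and cytoskeletal genes 1 was higher and 3 were lower, of 28 secreted signals 3 and 10, of 25 interferon and MHC class I genes 1 and 2, of 17 annexins and S100 proteins 1 and 4, and of 23 glucocorticoid and cAMP response genes 3 and 5. The cytoskeletal and interferon counts were near the shares of all genes, 4.09% higher and 6.53% lower. In the glucocorticoid and cAMP list the phosphodiesterase Pde4d (7.22 and 7.28 CPM against 2.87 and 2.93 CPM) and the adenylyl cyclase Adcy1 (6.73 and 4.92 CPM against 2.42 and 2.60 CPM) were higher and the cyclases Adcy2 and Adcy3 lower (-1.11 and -1.11). The interferon-inducible surface protein Ly6e, of the same family as Ly6a, was lower, at 21.0 and 23.7 CPM against 41.0 and 38.2 CPM (-0.81 ± 0.07). Of the 5 neuron markers tested, the nuclear protein NeuN (Rbfox3) was lower, at 40.6 and 42.5 CPM against 68.5 and 64.6 CPM (-0.66 ± 0.05), and sham neurons held 166 and 163 CPM.

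The second comparison set the Crh+ neurons against the Sprr1a- neurons of the sham libraries, 3726 in Male-Sham and 6152 in Female-Sham. Of 16401 genes tested, 3337 were higher in the Crh+ neurons (20.3%) and 4215 were lower (25.7%), with the same test without a block and a median log2 difference over all genes of -0.04. Injury, the selection for Sprr1a and the classes of the cells cannot be told apart in this comparison. Of the 43 injury-response genes tested, 40 were higher and 1 lower, with a median log2 difference of 3.51. Atf3 rose by a log2 difference of 3.47 ± 0.09, and the transcription factor Sox11 stood at 981 and 922 CPM against 39.3 and 45.9 CPM (4.62 ± 0.10). Of 23 p53 and stress genes, 19 were higher and none lower.

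The genes furthest above sham neurons included receptors and secreted proteins. Cckbr stood at 52.8 CPM in males and 48.4 CPM in females in Crh+ neurons, against 0.117 and 0.453 CPM in sham (7.56 ± 0.51, adjusted p = 9.93e-04). The fibroblast growth factor Fgf3 was at 100.3 and 100.3 CPM against 0.255 and 0.439 CPM (8.28 ± 0.14), the activin subunit Inhbb at 75.1 and 79.2 CPM against 0.617 and 0.290 CPM (7.58 ± 0.24) and the matrix protein Tgfbi at 81.7 and 79.4 CPM against 0.117 and 0.181 CPM (9.18 ± 0.11). All of these were nearly absent from uninjured neurons of both sexes. Slc6a4, the serotonin transporter, was at 24.7 and 28.9 CPM against 0.0160 and 0.172 CPM (8.20 ± 0.53). Cx3cr1, the fractalkine receptor best known from macrophages and microglia, was at 47.2 and 44.3 CPM against 0.122 and 0.557 CPM (7.16 ± 0.64). The immune list above was higher than in sham neurons too, with 4 of 7 tested genes called higher and none lower, where 20.3% and 25.7% of all genes were. Its sum was 25.1 and 17.1 CPM in Crh+ neurons against 10.8 and 7.11 CPM in sham neurons. With sex as a block the call of Cx3cr1 was lost (adjusted p = 0.0644). Ptx3, Trim15, C1ql2, Cryba2, Xdh, Adm2 and Sox9 were the other genes of this group whose call held with each library left out.

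Anxa1, an anti-inflammatory annexin, stood at 138 and 178 CPM in Crh+ neurons against 0.138 and 1.59 CPM in sham (7.59 ± 1.15), with an adjusted p of 0.108 with sex as a block, 0.128 without Male-CCI and 0.192 without Female-CCI. Ifi202b, an interferon-inducible DNA sensor, gave no UMI in the Sprr1a- neurons of either sham library and stood at 31.0 and 32.8 CPM in Crh+ neurons, at least 4344-fold higher when 3 UMIs over the sham group are taken as the floor. It was at 27.8 and 32.6 CPM in the other Sprr1a+ cells, 2.19 and 2.72 CPM in Sprr1a- neurons of CCI and 0 and 0 CPM in the sham cells with Sprr1a and Crh. A gene at 0 in both sham libraries and present in both CCI libraries, also in neurons without Sprr1a, follows the surgery and the litter alike, and these cannot be told apart.

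The genes furthest below sham neurons included peptides, receptors and channels of intact classes. Substance P precursor Tac1 stood at 58.2 CPM in males and 67.1 CPM in females in Crh+ neurons, against 2706 and 3109 CPM (-5.39 ± 0.11, adjusted p = 4.68e-09). Mrgprd, the receptor that defines NP2 neurons, was at 0.428 and 0.703 CPM against 72.3 and 45.7 CPM (-6.57 ± 0.60), and the galanin receptor Galr1 at 0.184 and 0.192 CPM against 13.2 and 11.8 CPM (-5.91 ± 0.22). The serotonin receptors Htr1a and Htr3a, the nicotinic subunits Chrna6 and Chrnb3, the prolactin receptor Prlr, the homeobox gene Hoxd1, Sst, C1ql4, C1qtnf7, Nptx1 and Ly6h were lower too, several of them on a few UMIs in the Crh+ neurons (1 and 2 for Sst, 2 and 2 for Htr1a). After thinning to 5000 UMIs the calls of Sst (adjusted p = 0.0713) and Mrgprd (0.152) were lost. Pvalb, parvalbumin of proprioceptors, was lower as well (-5.77 ± 1.00), but not with a CCI library left out (adjusted p = 0.184 and 0.0924). Of 27 neuropeptide receptors tested, 20 were lower and 2 higher, where 25.7% and 20.3% of all genes were. Of the 8 cLTMR markers 7 were lower and 1 higher, with a median log2 difference of -2.51. The exception was Fam19a4, at 80.9 and 90.5 CPM against 39.5 and 45.0 CPM in sham neurons of all classes (1.16 ± 0.09). In the sham neurons gated as cLTMRs it was at 385 and 363 CPM, above the Crh+ neurons.

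The few Sprr1a+ cells of the sham libraries gave a view of Crh outside the libraries used for the selection. The same gate in sham held 85 cells, 16 in Male-Sham and 69 in Female-Sham, with Crh at 714 and 517 CPM, against 4.74 and 7.26 CPM in the 219 other Sprr1a+ sham cells. In these, 316 of 10715 genes were higher with Crh (2.95%) and 328 lower (3.06%), by the same paired edgeR test, which was added after the CCI results were seen. DESeq2 called 101. Of the 618 genes higher in the Crh+ neurons of CCI, 411 could be tested in sham, where 194 were called higher and 1 lower. This is 47.2% of those tested and 61.4% of the genes called higher in sham. Of the 986 lower genes, 566 could be tested, 187 were called lower and none higher, which is 33.0% of those tested and 57.0% of the genes called lower in sham. The sham groups were not alike in Sprr1a. Its median CP10K in Male-Sham and Female-Sham was 31.1 and 27.7 with Crh against 16.1 and 16.5 without. In Male-CCI and Female-CCI the medians were 34.3 and 30.2 against 32.2 and 24.2. Differences that go with Crh and with the Sprr1a level therefore cannot be told apart in sham. The sham groups differed in doublet scores too. The highest 15% of scores held 25% and 26.1% of the cells with Crh in Male-Sham and Female-Sham. Of the other Sprr1a+ sham cells they held 41.1% and 41.7%. In Male-CCI and Female-CCI these shares were 15.4% and 12.6% with Crh against 18.0% and 21.4%. The sham test was not repeated without such cells, so their part in the sham differences was not tested.

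Most of the named genes went the same way with Crh in sham, 15 of the 15 higher and 12 of the 15 lower ones. All 15 of the named higher genes were called higher in sham too, and 9 of the 15 named lower genes were called lower. The median log2 difference of the former was 2.14 in CCI and 1.90 in sham, and of the latter -2.00 and -1.62. Plppr1 stood at 30.4 and 31.2 CPM in the sham cells with Crh against 2.11 and 3.63 CPM in those without, and Fam19a4 at 189 and 166 CPM against 40.8 and 54.4 CPM. Igfbp3 was at 117 and 144 CPM against 60.6 and 52.3 CPM, and Cckar at 59.7 and 42.8 CPM against 9.75 and 21.6 CPM. Of the cLTMR signature, 9 of 24 tested genes were higher and 1 lower in sham, with a median of 0.81, where 2.95% and 3.06% of all genes were called. Th, higher with Crh in CCI, was at 14.1 and 25.1 CPM against 7.38 and 27.0 CPM in sham (0.10 ± 0.24). A test of the difference itself, the interaction of surgery and Crh, called 48 of 13251 genes higher in CCI (0.362%) and 55 lower (0.415%).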

How the data were processed

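Per the labels and the methods of the study, single GFP+ cells of the L4-5 DRGs were sequenced by the 10x Genomics 3′ method, and the authors made the deposited UMI counts per gene and cell with Cell Ranger (version 2.1.1 in the processing notes) against mm10. The values are raw counts with no cell annotation, and the study's clusters are not used here. Kept cells had at least 1500 genes, at least 5000 UMIs and at most 10% mitochondrial UMIs. The members and the gene lists were chosen with earlier results of these data known.

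UMIs were summed per library over the cells of each kind and tested with edgeR 4.0.16 (R 4.3.3): filterByExpr, TMM, glmQLFit with robust set, glmQLFTest and Benjamini-Hochberg adjustment over all genes tested. A call needed an adjusted p below 0.05 and an absolute log2 fold change above 0.5. The comparison with other Sprr1a+ cells had the library as a block, since both kinds of cell come from the same pooled mice. The comparison with sham neurons had none. Sprr1a, Crh, Ly6a, Igfbp3 and Cckar were part of the fits and of the adjustment of p-values, and were left out of all calls and counts. Intervals of shares are exact binomial at 95% and cover counting error only, and 3 UMIs was taken as the floor.

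Named genes were the 15 largest called differences per direction and test with the same sign in both sexes and at least 10 CPM in the higher group of both libraries, the selection genes and markers, the members of the 34 gene lists and the genes of the class signatures. Some genes these rules name are not reported here. Signatures were the 30 genes highest in each of 8 classes of Sprr1a- sham neurons over the next class in both sham libraries. Classes were gated on their marker genes, and the last condition of the PEP1/2 gate was added after sham cell counts were seen. No cells were removed as doublets in the values given, since the automatic threshold of the caller in scanpy 1.11.5 marked 0, 200, 1 and 0 cells in the 4 libraries. Positions are those of the GENCODE annotation of GRCm38. The alternatives were other limits on Crh, Sprr1a and UMIs, the highest 15% of doublet scores left out, thinning to 5000 UMIs, other comparison cells, no filter on low counts, DESeq2 1.42.0, the block, and leaving out each library. All tests were tried on simulated counts with known changes.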

Additional observations from a re-analysis of the deposited data

Results flagged for a closer look

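For 12 of the called genes of the lists, the named sets and the cLTMR signature, the difference between cells with and without Crh was not the same in the CCI and the sham libraries, by the interaction term of surgery and Crh in the edgeR fit, with p-values adjusted over all genes tested. Values are log2 differences, CCI minus sham, and the sham side rests on 16 and 69 cells with Crh. Those sham cells also held more Sprr1a than the sham cells without Crh. Cells with high doublet scores were kept, and they were a larger part of the sham cells without Crh than of those with it. The interaction was not tested without them. The test was added after the data were seen, and surgery and litter cannot be told apart. Over all 13251 genes tested it called 0.362% higher in CCI and 0.415% lower. Only genes already called in CCI were looked at here, so larger differences in CCI are partly selected for.

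Of the cLTMR genes, Th was 1.68 higher with Crh in CCI and 0.10 in sham, a difference of 1.58 (SE 0.30, adjusted p = 0.00883). Ceacam10 went the same way, at 2.1 and 0.10, a difference of 2.05 (SE 0.39, adjusted p = 0.0121). For Fxyd6, higher with Crh in both, the sham value was the larger, at 1.20 and 2.20, a difference of -0.99 (SE 0.15, adjusted p = 0.0214). The cLTMR genes thus did not share one direction.

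Among peptides and itch genes, Calca was -1.48 in CCI and -0.26 in sham, a difference of -1.22 (SE 0.11, adjusted p = 2.09e-05). The itch receptor Il31ra was -3.73 and -1.25, a difference of -2.51 (SE 0.52, adjusted p = 0.0217). Nts, higher with Crh in CCI and lower in sham, was 0.55 and -0.29, a difference of 0.84 (SE 0.11, adjusted p = 3.25e-04).

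Another 3 genes changed sign between the surgeries. Sytl3 was -1.75 in CCI and 0.34 in sham, a difference of -2.08 (SE 0.46, adjusted p = 0.0333). The galectin Lgals1 was -0.57 and 0.32, a difference of -0.90 (SE 0.10, adjusted p = 1.89e-04), and the metalloproteinase inhibitor Timp3 -0.86 and 0.29, a difference of -1.19 (SE 0.18, adjusted p = 0.00524). The remaining genes kept their sign and were nearer 0 in CCI. The neurofilament gene Nefh was -0.53 and -1.25, a difference of 0.71 (SE 0.14, adjusted p = 0.0264), Gna14 -0.79 and -1.67, a difference of 0.84 (SE 0.18, adjusted p = 0.0280), and Nrp1 1.05 and 2.01, a difference of -0.94 (SE 0.21, adjusted p = 0.0296).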

How the results depend on the processing

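The count of genes called between Crh+ and other Sprr1a+ neurons, 1604 in all, fell to 796 with DESeq2 and to 735 with every cell thinned to 5000 UMIs, and lay between 551 and 984 with a CCI library left out. Under the other alternatives it lay between 1346 and 1790. The lowest of these, 1346, was the fit without the replicate block, which ended the call of Sectm1b. Against sham neurons the count was 7552 and lay between 5149 and 7881, with 7454 where sex was the replicate block, which ended the calls of Anxa1 and Cx3cr1 and of no other gene named there. CCI and sham libraries of one sex came from different mice, so sex is no pairing, and their deviations from the group means correlated at r = 0.316 over 16406 genes. In the added comparison of sham cells, DESeq2 called 101 genes where edgeR called 644, and the fit without a block 443. Of the 30 genes named furthest from the other Sprr1a+ cells, 22 kept their call under every alternative, and of the 30 named against sham neurons 25. Of the 267 genes followed in the former comparison, 99 did, and 2 turned in sign after thinning, Bdkrb2 (0.0734) and Kcnip2 (-0.00325). Thinning leaves fewer UMIs, and the cause of the other changes was not tested. With a Crh limit of 1 CP10K the share of Crh+ neurons was 14.1% in Male-CCI and 13.2% in Female-CCI, and after thinning 14.7% and 13.6%. Penk and Cartpt were not called once comparison cells with any Crh UMI were left out. Without a filter on low counts the calls of Cartpt and Pcp4l1, and of Pvalb against sham neurons, were lost, and that of Pvalb also after thinning, as were those of Sst and Mrgprd. Leaving out comparison cells with glial Apoe levels, chosen after seeing the data, gave 1618 calls and ended that of Pcp4l1. With 2 pooled libraries per surgery, the spread between mice was not measured.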

Other observations

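Gfral, the receptor for the stress cytokine GDF15, was chosen after its values were seen. It stood at 5.32 and 0 CPM in the Crh+ neurons of Male-CCI and Female-CCI and at 1.89 and 0 CPM in the other Sprr1a+ cells, so that the female CCI library gave no Gfral UMI in either kind of cell. In the sham cells with Sprr1a and Crh it stood at 5.86 and 7.63 CPM. Gdf15 itself was at 6.97 and 6.96 CPM in the Crh+ neurons, 4.05 and 4.78 CPM in the other Sprr1a+ cells and 0.239 and 0.398 CPM in the Sprr1a- neurons of sham, and its higher level in Crh+ neurons (adjusted p = 0.00200) was not called with the male (0.428) or the female (0.244) library left out. Each of these values is a description of 2 CCI and 2 sham libraries.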
